A study of Danio rerio with 12 samples.

Results

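Female and male zebrafish livers on the control diet were compared across all measured genes. The groups were 3 pools of female livers (replicates 1, 2 and 3) and 3 pools of male livers (replicates 1, 3 and 4), all from adult wild-type AB fish fed 0% maize, in which wheat stood in the place of maize, with Artemia as a supplement for 28 days. These are 6 of the 12 pools of the series. The other 6 pools came from females (replicates 2, 3 and 4) and males (replicates 1, 2 and 3) fed 25% maize for the same time and with the same supplement. Each pool held the livers of fish of 1 sex from 1 replicate, with 10 females and 10 males kept per replicate, and females and males of a replicate shared a tank. A pool is therefore 1 sample whatever its number of fish, and fewer cells of a type cannot be told apart from less RNA per cell. In zebrafish the pancreas lies scattered along the liver, and the study describes its liver samples as a mixture of hepatocytes and pancreas cells.

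The liver of an egg-laying fish differs between the sexes. In females, oestrogen from the ovary reaches hepatocytes, binds the oestrogen receptor and switches on the vitellogenin genes. Vitellogenins are large lipid-bearing phosphoproteins that pass through the endoplasmic reticulum and Golgi apparatus, enter the blood and are taken up by growing oocytes as yolk. The liver of both sexes also makes most plasma proteins, breaks down steroids and foreign compounds, and runs lipid and carbohydrate metabolism.

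RNA was measured on 12 two-colour Agilent arrays, each comparing 1 pool labelled with Cy5 with 1 pool labelled with Cy3, and every pool was labelled once with each dye. No array held a female and a male pool of the 0% maize diet together, so the sex difference was solved through the closed loop that the 12 arrays form. Each level below is a pool's log2 level relative to the mean of the 12 pools, listed for females of replicates 1, 2 and 3 and for males of replicates 1, 3 and 4. Each difference is female minus male on the log2 scale from the fit with limma, with its standard error (SE) and a p-value adjusted over all genes by Benjamini-Hochberg. The labels and methods state neither the base of the logarithm nor the direction of the deposited ratios. Base 2 follows the convention of limma. Cy5 over Cy3 is the likely direction because all 470 values of 47 vitellogenin probes on the 10 arrays of both sexes then read as higher in females, with a median of 5.21. Every direction given here rests on this reading, and the direction of the vitellogenins is therefore no finding.

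The array medians lay between -0.05 and 0.04, and only relative levels were deposited, so that the absolute level of a tissue marker could not be checked. The female 0% maize pool of replicate 2 stood apart. The standard deviation (SD) of its deviations from its group was 0.326 over all genes, against 0.177 to 0.237 in the other 11 pools. The median SD between pools was 0.193 in females and 0.148 in males, and 61.2% of genes had the larger SD in females.

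Of 6684 genes, 3826 (57.2%) passed an adjusted p of 0.05 between female and male pools, with 2094 genes (31.3%) above and 1732 (25.9%) below the male level in females. The median difference over all genes was 0.05. By their solved levels, the pools of the sexes did not overlap for 4216 genes (63.1%), with females above males for 2193 (32.8%) and below for 2023 (30.3%). With more than a 2-fold difference as a further condition, 701 genes (10.5%) were higher and 635 (9.50%) lower. Differences over 10-fold were mostly in 1 direction, with 83 genes (1.24%) higher and 8 (0.120%) lower in females. By single probes, 6786 of 12275 (55.3%) passed. Exact permutation of 3 against 3 pools allows no p below 0.1, so single genes rest on the model fitted across all genes. The plot of differences against adjusted p shows the vitellogenins and egg coat genes to the right. The ribosome biogenesis and secretory pathway genes lie mostly right of 0.

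**Figure D1:**
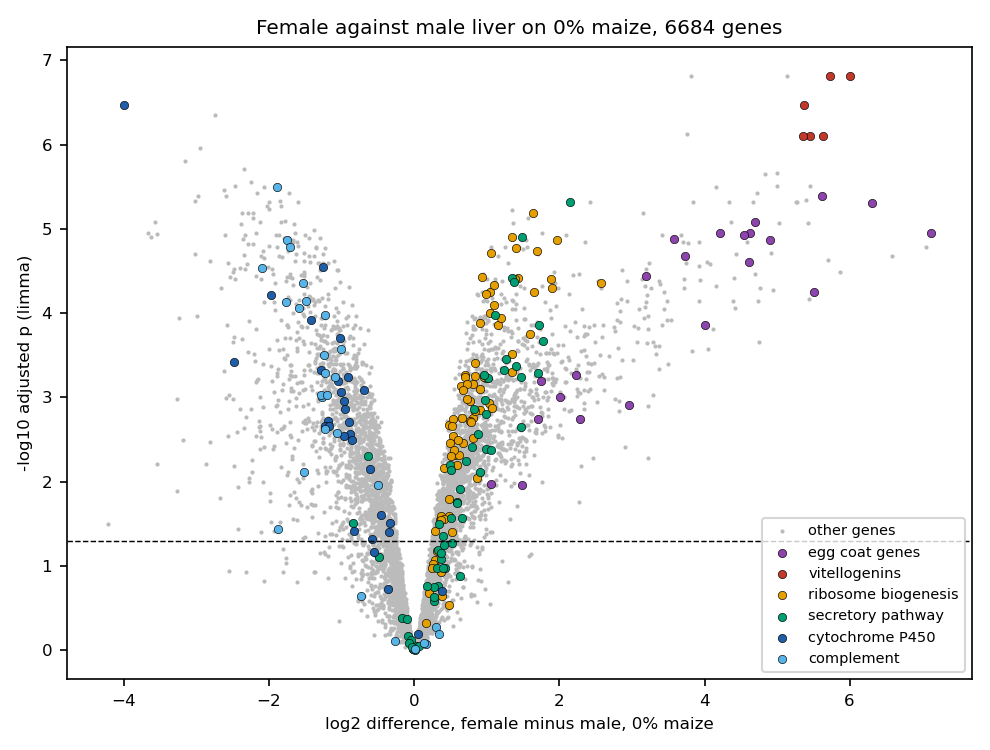
Difference between female and male liver on 0% maize (x axis, log2, female minus male) against its adjusted p (y axis, -log10, limma) for 6684 genes, 1 point per gene, with 6 gene groups in colour and the threshold of 0.05 as a dashed line. The vitellogenins and egg coat genes lie to the right, up to a difference of 7.12, whereas cytochrome P450 and complement genes lie mostly to the left.

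These counts depend on a few links of the loop. The array of 2 female pools and the array of 2 male pools join the part of the loop that holds all female 0% maize pools with the part that holds all male 0% maize pools, so that the whole difference crosses these 2 arrays. The pool levels are solved through the same 2 arrays. An error in either moves the female 0% maize levels largely together against the male levels. A lack of overlap between the sexes is therefore not an agreement of independent readings. The number of genes past the threshold was 1844 without the array of 2 female pools and 1524 without the array of 2 male pools. It was 1815 without the female 0% maize pool of replicate 1, 2530 without that of replicate 3, 1232 without the male 0% maize pool of replicate 1, 1364 without the female 25% maize pool of replicate 4 and 999 without the male 25% maize pool of replicate 3. It was 4183 without the female 0% maize pool of replicate 2. These counts out of 6684 genes are the background for the counts per list in the same fits below. Between 87.1 and 98.9% of the genes called in these 8 fits were also called with all pools, and none of these shared genes had the opposite sign.

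All 6 measured vitellogenin genes were higher in females, by 5.36 to 6.0, and every one of their probes passed. The highest, vtg4, had levels of 3.43, 2.72 and 3.23 in females, against -2.61, -3.24 and -2.88 in males. This is a difference of 6.0 (SE 0.24, adjusted p = 1.5e-07), and every female pool lay far above every male pool. The female pool of replicate 2 was the lowest female pool. It was also lowest for the mean of the list, at 2.57 against 3.14 and 3.11 in replicates 1 and 3. Levels of vtg2 were 3.12, 2.70 and 3.04 in females and -2.40, -3.14 and -2.89 in males, a difference of 5.73. The vitellogenin genes vtg2, vtg4, vtg5, vtg6 and vtg7 lie next to or near each other in the GRCz12tu annotation, and vtg3, with a difference of 5.63, lies on another chromosome. The annotated pseudogene LOC100330641 lies directly between vtg4 and vtg6, and its single probe differed by 5.73 (SE 0.25, adjusted p = 1.5e-07). Near-identical copies of a gene can hybridise to the same probe, so the values of single members of this cluster are uncertain.

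Other genes tied to oestrogen did not move as 1 block. nots, which encodes nothepsin, an aspartic proteinase of female fish liver, had levels of 2.87, 2.57 and 2.56 in females, against -2.13, -2.81 and -2.67 in males, and its difference was 5.13 (SE 0.22, adjusted p = 1.5e-07). The oestrogen receptor gene esr1 had levels of 0.69, 0.59 and 0.59 in females and -0.76, -0.61 and -0.61 in males. It was higher in females by 1.30 (SE 0.13, adjusted p = 2.5e-05), and 2 of its 3 probes passed singly. These probes ranged from 0.16 to 3.22, so the size of the difference is uncertain. On 25% maize esr1 differed by 2.28, and the change between diets did not pass (adjusted p = 0.165 by limma). Its paralogue esr2a was lower by 0.42 (adjusted p = 0.018). For esr2b the difference was -0.24 (adjusted p = 0.49), with overlapping pools. shbg, the sex hormone-binding globulin of plasma, was lower in females, with levels of -1.1, -0.76 and -1.11 against 0.59, 1.21 and 0.75 in males and a difference of -1.86 (SE 0.18).

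Genes of the egg coat, oocyte and cell cycle were higher in the female pools, with the pool of replicate 2 the lowest female pool for the mean of each list. Zona pellucida (zp) genes encode the glycoproteins of the egg coat, which in zebrafish are made in the ovary and in several other fishes also in the liver. All 22 measured egg coat genes were higher in females, with a median of 3.87. The largest difference of all genes was that of zp2.6, with levels of 4.09, 2.25 and 4.35 in females, against -2.97, -3.92 and -3.82 in males, a difference of 7.12 (SE 0.60, adjusted p = 1.1e-05). For zp2.5, levels were 3.66, 2.19 and 3.71 in females and -2.73, -3.31 and -3.31 in males, and zpcx had 3.29, 1.38 and 3.76 in females and -2.36, -2.74 and -2.66 in males. In each of these genes the female pool of replicate 2 was the lowest female pool, yet still above all males. The genes zp2.1, zp2.2, zp2.3, zp2.5 and zp2.6 lie in 1 cluster of the genome, and differed by 4.21, 4.91, 5.62, 6.31 and 7.12.

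Of the 18 measured ovary and oocyte genes, 15 were higher in females and none was lower. The maternal linker histone h1m had levels of 2.6, 1.03 and 2.40 in females and -1.78, -2.12 and -2.16 in males. Its difference was 4.07 (SE 0.40, adjusted p = 2.6e-05). The claudin gene cldnd differed by 3.92, zar1l, a relative of the oocyte factor zar1, by 3.75, and cpeb1b, which binds polyadenylation elements of stored oocyte mRNA, by 3.71. Of 36 genes of the cell cycle and DNA replication, 35 were higher. The mitotic kinase genes aurka and aurkb differed by 3.72 and 3.10, the cyclin gene ccna2 by 3.20, and mcm2, a part of the replicative helicase, by 3.22. Levels of aurka were 2.15, 0.76 and 2.44 in females and -1.82, -1.72 and -1.88 in males. The lowest counts when 1 pool was left out were 14 of 22, 9 of 18 and 12 of 36 for these 3 lists. Each came without the male 25% maize pool of replicate 3, where 999 of all 6684 genes passed.

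The female pool of replicate 2 was the lowest female pool for 79 of the 83 genes that were over 10-fold higher. The same share over all genes was not counted, and over all genes this pool deviated most from its group (SD 0.326). The 79 are therefore not shown to be particular to these genes. Averaged over the list, its level of ovary and oocyte genes was 0.46 against 1.55 and 1.80 in the female pools of replicates 1 and 3, and the male pools lay between -1.29 and -1.11. Of those 83 genes, 6 were vitellogenins, 13 egg coat genes, 6 ovary and oocyte genes and 3 cell cycle genes. The part of ovary tissue in the female pools was not tested. Among the 83 were uncharacterised genes that lie near each other, but not side by side, in the GRCz12tu annotation, LOC100301575 and si:dkeyp-98a7.5, with differences of 6.59 and 7.06. Levels of si:dkeyp-98a7.5 were 4.04, 2.30 and 4.30 in females and -2.94, -3.94 and -3.78 in males. Another uncharacterised gene, si:dkeyp-46h3.6, on another chromosome, had 3.69, 1.51 and 3.48 in females and -2.70, -2.63 and -2.87 in males. In these genes, as in the egg coat genes, the female pool of replicate 2 was the lowest female pool.

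**Figure D2:**
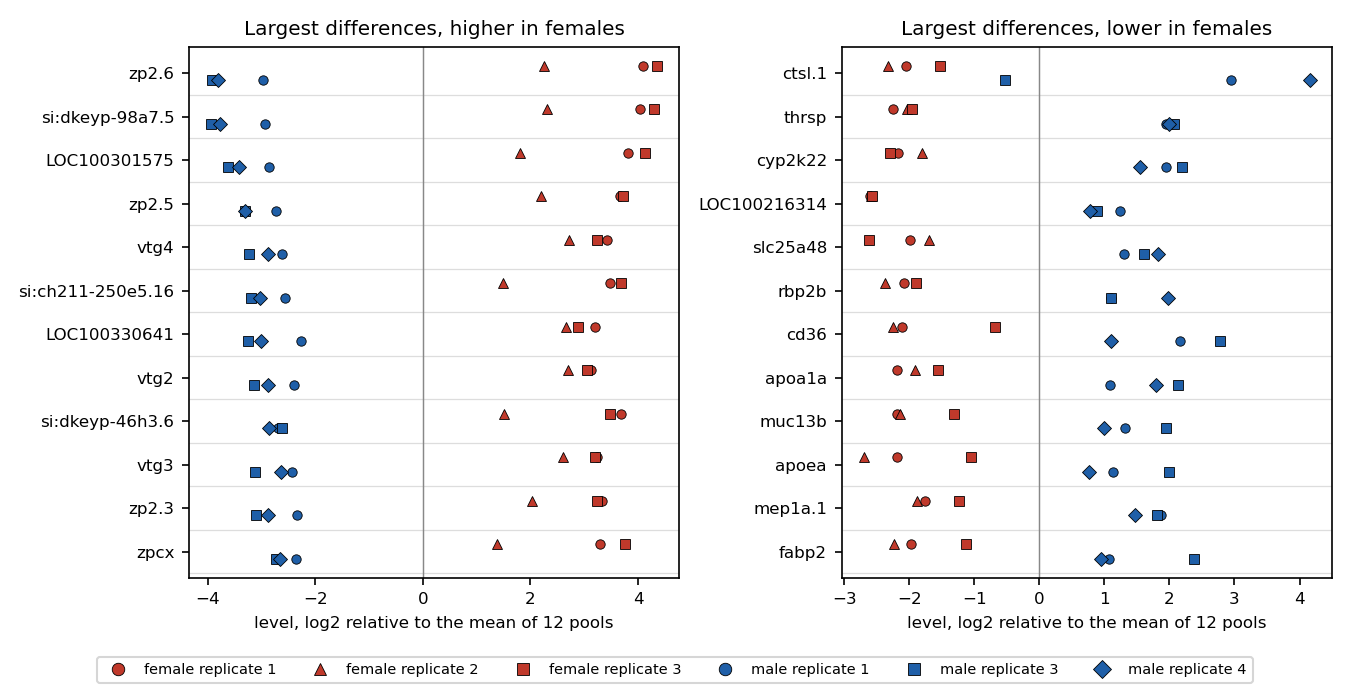
Levels of the 12 genes with the largest positive and the 12 with the largest negative difference among genes past the threshold with no overlap of the sexes, 1 point per pool, females drawn above males in each row (x axis, log2 relative to the mean of 12 pools). Female replicate 2 (triangle) is the lowest female pool in every gene of the left panel, and in the right panel ctsl.1 of male replicate 3 (blue square, -0.52) lies far below the other male pools.

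Called genes of the machinery of protein secretion were mostly higher in females, and here the female pool of replicate 2 did not stand apart. Of 61 measured genes of the secretory pathway, 33 were higher and 2 lower, with a median of 0.51. In all 57.4% passed, close to the 57.2% over all genes, so that only the direction set this list apart. Over all genes, 31.3% were higher and 25.9% lower. The proteins encoded by ssr2, ssr3 and ssr4 belong to the translocon-associated complex, which helps nascent chains into the endoplasmic reticulum, and sec61b encodes a subunit of the channel itself. Levels of ssr3 were 1.12, 0.91 and 1.1 in females, against -0.89, -1.27 and -1.14 in males, a difference of 2.14 (SE 0.16, adjusted p = 4.9e-06). The differences of ssr4, ssr2 and sec61b were 1.48, 1.37 and 1.35. No pool of 1 sex reached a pool of the other in any of the 4 genes. The same held for 63.1% of all genes, and these 4 were named for their small p, so their separation adds no support.

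Of 34 genes of endoplasmic reticulum chaperones and the unfolded protein response, which adjusts folding capacity to load, 20 were higher and 1 lower, with a median of 0.61. In all 61.8% passed, near the 57.2% over all genes, where 31.3% were higher and 25.9% lower. The transcription factor xbp1 had levels of 1.81, 1.75 and 0.79 in females and -0.97, -0.40 and -0.93 in males, a difference of 2.21 (SE 0.28, adjusted p = 1.3e-04). syvn1, a ubiquitin ligase that removes misfolded proteins, differed by 1.55, ero1a, which oxidises folding partners, by 0.82, and atf4a, another transcription factor of the response, by 0.81, where 1 of 2 probes passed singly. prdx4, a peroxiredoxin of the endoplasmic reticulum, was higher by 1.35. It is counted in the antioxidant list and not here, and in that list 19 genes were lower and 3 higher.

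The mean level of the secretory pathway list was 0.28, 0.31 and 0.34 in females and -0.36, -0.19 and -0.30 in males. That of the chaperone list was 0.26, 0.38 and 0.45 in females and -0.41, -0.25 and -0.25 in males. Set against the male mean, the female pool of replicate 2 had 99.0% of the excess of the other female pools for the secretory pathway, 104.1% for the chaperones and 90.5% for the vitellogenins. For the egg coat, ovary and cell cycle lists it had 69.1, 57.7 and 51.2%. Lists without ovary markers also ranged widely in this share of the difference. It was 56.7% for cytosolic ribosomal proteins, 61.0% for cytochrome P450 and 44.5% for complement. By contrast it was 89.6% for ribosome biogenesis, 93.1% for hepatocyte markers and 114.6% for translation factors. These shares describe 1 pool on the log2 scale and were not tested. The lowest counts with 1 pool left out were 14 of 61 for the secretory pathway and 4 of 34 for the chaperones. All of these genes were higher in females. Both counts came without the male 25% maize pool of replicate 3, where 999 of all 6684 genes passed, 504 of them higher.

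**Figure D3:**
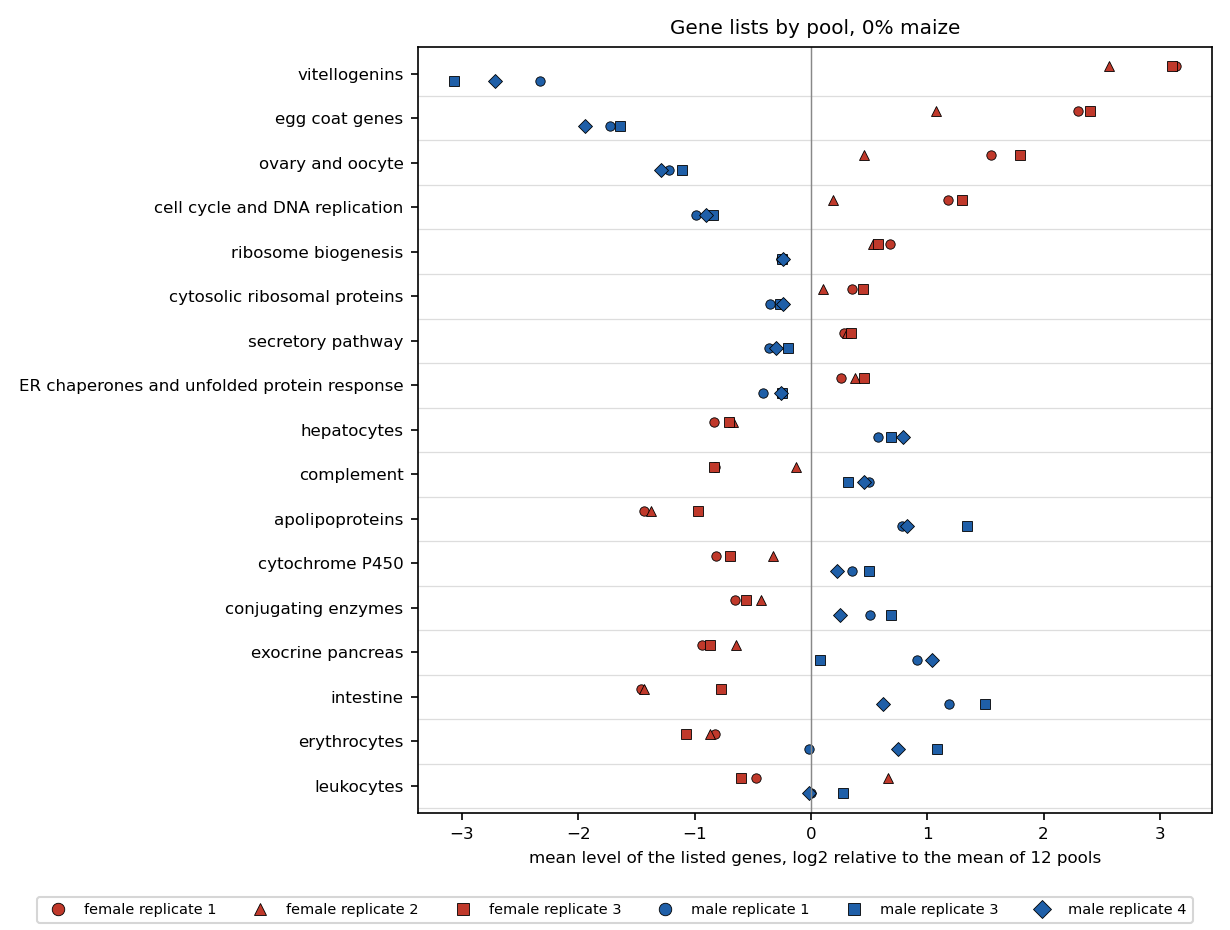
Mean level of 17 gene lists in each 0% maize pool (x axis, log2 relative to the mean of 12 pools), with females in red above males in blue. Female replicate 2 (triangle) lies below the other females for egg coat, ovary and cell cycle genes, among them for the secretory pathway, and at 0.66 above every other pool for leukocytes.

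Most measured genes of ribosome biogenesis, of cytosolic ribosomal proteins and of translation factors were higher in females. Mitochondrial ribosomal protein genes that passed were also higher, but most of that list did not pass. Of 78 ribosome biogenesis genes, which process ribosomal RNA and assemble subunits in the nucleolus, 68 were higher and none lower, with a median of 0.77. Levels of rrp9, a protein of the small nucleolar complex that processes ribosomal RNA, were 1.35, 0.77 and 1.28 in females and -0.85, -0.77 and -0.78 in males, a difference of 1.97 (SE 0.17, adjusted p = 1.3e-05). utp15, utp25 and bop1, which also act in processing, differed by 1.64, 1.40 and 1.35. The mean level of this list was 0.68, 0.54 and 0.57 in females and -0.26, -0.25 and -0.24 in males. The male pools were thus nearly alike, and every female pool lay above them. With arrays scaled to 1 spread, a setting that also rescales the 2 arrays of 1 sex each, 43 of the 78 passed. Without the male 25% maize pool of replicate 3, 33 passed, against 999 of all 6684 genes.

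Of 77 cytosolic ribosomal protein genes, 56 were higher and 1 lower, with a median of 0.63. The ribosomal protein genes rpl22l1, rpl12, rps27.1 and rpl5b differed by 1.54, 1.01, 1.01 and 0.94. Of 88 genes of translation factors and tRNA synthetases, 52 were higher and 5 lower, among them iars1 and gars1, the synthetases of isoleucine and glycine tRNA, at 1.98 and 1.40, and the factors eif5a2 and eef1g, at 1.57 and 1.22. In all 64.8% of these 88 passed, against 57.2% over all genes. Of 63 mitochondrial ribosomal protein genes, 27 (42.9%) were higher, none was lower and 36 did not pass, with a smaller median of 0.29. Over all genes, 31.3% were higher. mrpl17, the largest of the 4 named for this list, differed by 1.1. With arrays scaled to 1 spread, 12 of these 63 were higher and 5 lower. The lowest counts with 1 pool left out were 12 of 77, 16 of 88 and 1 of 63. The first pair came without the male 25% maize pool of replicate 3, where 999 of all 6684 genes passed. The last came without the female 25% maize pool of replicate 4, where 1364 of all 6684 passed.

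Hepatocyte marker genes, many of which encode plasma proteins, were mostly lower in females. Of 25 genes listed as hepatocyte markers, of which 12 also stand in another list, 22 were lower and 1 higher, with a median of -1.37. The mean level of this list was -0.83, -0.67 and -0.70 in females, against 0.57, 0.69 and 0.79 in males, and the counts with 1 pool left out did not fall below 18. hpxa, the haem carrier hemopexin, had levels of -1.56, -1.93 and -1.17 in females and 1.58, 1.43 and 1.76 in males, a difference of -3.15 (SE 0.19, adjusted p = 1.6e-06). The iron carrier transferrin (tfa) differed by -1.60 on all 7 probes and the copper protein ceruloplasmin (cp) by -1.64. fabp10a, the liver fatty acid binding protein, had levels of -1.0, -1.30 and -0.97 in females and 1.19, 0.87 and 1.39 in males.

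Most complement and clotting genes were also lower, and 6 of the 19 clotting genes (f2, fga, fgb, fgg, kng1 and plg) are among the hepatocyte markers already counted. Of 28 complement genes, 21 were lower in females and none higher. c9, a part of the membrane attack complex, had levels of -1.09, -0.92 and -1.09 in females and 0.84, 0.67 and 1.02 in males, a difference of -1.89 (SE 0.13, adjusted p = 3.2e-06). c8a, of the same complex, differed by -1.76, cfb, the factor of the alternative pathway, by -1.71, and cfhl3, a factor H-like gene, by -2.09. Over the whole list the female pool of replicate 2 was at -0.13, against -0.83 in both other female pools and 0.32 to 0.50 in males. Of 19 genes of clotting and its inhibitors, 16 were lower and 1 higher. The 3 fibrinogen chains fga, fgg and fgb differed by -2.03, -1.83 and -1.62, and serpinc1, antithrombin, by -1.5. Without the female 25% maize pool of replicate 4, 12 of 28 and 12 of 19 passed, against 1364 of all 6684 genes.

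Apolipoproteins, the protein coats of lipoproteins, were lower in females for 10 of 12 genes and higher for none, with a median of -2.35. Of these 12 genes, apoa4b.1 and apoa4b.2 are also in the list of intestine markers, whose median was -2.43, and apoa2 and apobb.1 are among the hepatocyte markers. The part of intestine tissue in these differences was not tested. Levels of apoa1a were -2.19, -1.92 and -1.56 in females and 1.08, 2.13 and 1.79 in males, a difference of -3.54 (SE 0.30, adjusted p = 1.2e-05). apoa2, apobb.1 and apoc1 differed by -2.98, -2.75 and -2.59. For apoea the difference was -3.26, with a wide SE of 0.95 and levels of -2.19, -2.70 and -1.04 in females against 1.13, 2.00 and 0.76 in males. Genes of lipoprotein handling split. lipg, endothelial lipase, was higher in females by 3.31, scarb1, the receptor for high-density lipoprotein, by 1.73, and vldlr, of the receptor family that takes up yolk in oocytes, by 1.13. The female pool of replicate 2 was the lowest female pool in these 3 genes, at 0.60, 0.24 and -0.19. cetp, the cholesteryl ester transfer protein, was lower by 1.52.

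Fatty acid synthesis was lower in females for 12 of 22 genes and higher for 3. In all 68.2% of this list passed, against 57.2% over all genes, where 25.9% were lower. The most pronounced was thrsp, a thyroid hormone-responsive regulator of lipogenesis, with levels of -2.25, -2.04 and -1.96 in females, against 1.94, 2.07 and 1.99 in males. The difference was -4.01 (SE 0.20, adjusted p = 3.4e-07), and the pools within each sex nearly coincided. me1, which supplies NADPH, elovl6, a fatty acid elongase, and dgat2, which closes triglycerides, differed by -2.35, -2.33 and -1.77. Of 28 genes of fatty acid oxidation, 21 were lower and 1 higher, among them ehhadh and acaa1 of peroxisomes, at -1.63 and -1.40, and etfdh and acaa2 of mitochondria, at -1.48 and -0.85. Of 17 genes of cholesterol synthesis, 5 were higher, which is close to the 31.3% over all genes, 1 was lower and 11 did not pass. hmgcs1, hmgcra and sqlea, enzymes of this synthesis, were higher by 1.76, 1.52 and 1.05. By contrast, srebf2, the regulator of the pathway, was lower by 0.53, where 1 of 2 probes passed singly. With the tank as a block, srebf2 was at -0.45 (adjusted p = 0.0785). Levels of hmgcra were 1.5, 1.39 and 0.73 in females and 0.11, -0.17 and -0.85 in males. Without the male 25% maize pool of replicate 3, 6 of 22, 8 of 28 and 1 of 17 genes of these 3 lists passed. Over all genes, 999 of 6684 passed in that fit.

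Enzymes that clear steroids and foreign compounds were lower in females for most of their lists. Of 30 cytochrome P450 genes, 26 were lower and none higher. cyp2k22, of a fish P450 subfamily, had levels of -2.17, -1.81 and -2.29 in females and 1.94, 2.19 and 1.55 in males, a difference of -4.00 (SE 0.19, adjusted p = 3.4e-07). cyp1d1, cyp2p9 and cyp2y3 differed by -1.98, -1.42 and -1.25. Of 39 conjugating enzymes, 33 were lower and none higher. The sulfotransferases sult2st2 and sult3st4 both differed by -2.11, and the glutathione transferases gstt1a and gstt1b by -2.00 and -1.90. The P450 genes overlap in sequence within subfamilies, so that values of single members are uncertain. The lowest counts with 1 pool left out were 9 of 30 and 11 of 39. Both came without the male 25% maize pool of replicate 3, where 999 of all 6684 genes passed.

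Of 18 hydroxysteroid dehydrogenases and other steroid enzymes, 9 were lower and 5 higher, the latter close to the 31.3% over all genes. hsd17b3, which in human testis forms testosterone, had levels of -1.38, -1.05 and -1.70 in females and 2.25, 1.65 and 0.99 in males, a difference of -3.02 (SE 0.29, adjusted p = 2.0e-05). hsd11b2, which oxidises cortisol and, in fish, takes part in making 11-oxygenated androgens, had -1.53, -1.13 and -2.16 in females and 1.60, 1.02 and 0.96 in males, a difference of -2.82. In the opposite direction, hsd17b12a, whose human counterpart acts in fatty acid elongation, had 1.52, 1.13 and 2.08 in females and -0.87, -0.48 and -1.53 in males, a difference of 2.60. Of 9 genes of bile acid synthesis and transport, 7 were lower and none higher, with cyp8b1.1, a sterol hydroxylase of bile acid synthesis, at -2.00 and the bile acid carrier subunit slc51a at -1.52. Without the male 0% maize pool of replicate 1, 6 of the 18 steroid enzymes and 2 of the 9 bile acid genes passed. Over all genes, 1232 of 6684 passed in that fit.

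Carbohydrate and amino acid metabolism was lower in females for most called genes. Of 31 genes of glucose and glycogen metabolism, 20 were lower and 4 higher. pck2, fbp1b and pgm1, enzymes of gluconeogenesis and of glycogen turnover, differed by -1.96, -1.78 and -1.84, and the liver glycogen phosphorylase pygl by -1.52. Levels of fbp1b were -0.83, -0.88 and -0.55 in females and 1.11, 1.07 and 0.95 in males. Of 40 genes of amino acid breakdown and the urea cycle, 26 were lower and 5 higher, including the tyrosine-degrading hpda and hgd, at -1.60 and -1.45, and the aminotransferase got1 at -1.73. qdprb.4, a dihydropteridine reductase copy, was higher by 3.21 on all 4 probes, with the female pool of replicate 2 at 0.83 against 2.05 and 2.15. In the methionine cycle and polyamine list, 15 of 28 were lower and 2 higher, with gnmt at -1.59 and shmt1 at -1.26, but mat2aa, which makes S-adenosylmethionine, at 1.44. Of 26 genes of purine and pyrimidine synthesis, 13 were higher and 3 lower, with umps and ctps1a at 1.62 and 1.39 and the purine-degrading uox at -1.74. The methionine and purine lists passed at 60.7 and 61.5%, near the 57.2% over all genes. Over all genes, 31.3% were higher and 25.9% lower. The lowest counts with 1 pool left out follow, with the count out of all 6684 genes in brackets. They were 14 of 31 without the male 25% maize pool of replicate 3 (999). For the female 25% maize pool of replicate 4 they were 13 of 40 and 7 of 26 (1364). For the male 0% maize pool of replicate 1 the count was 7 of 28 (1232).

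**Figure D4:**
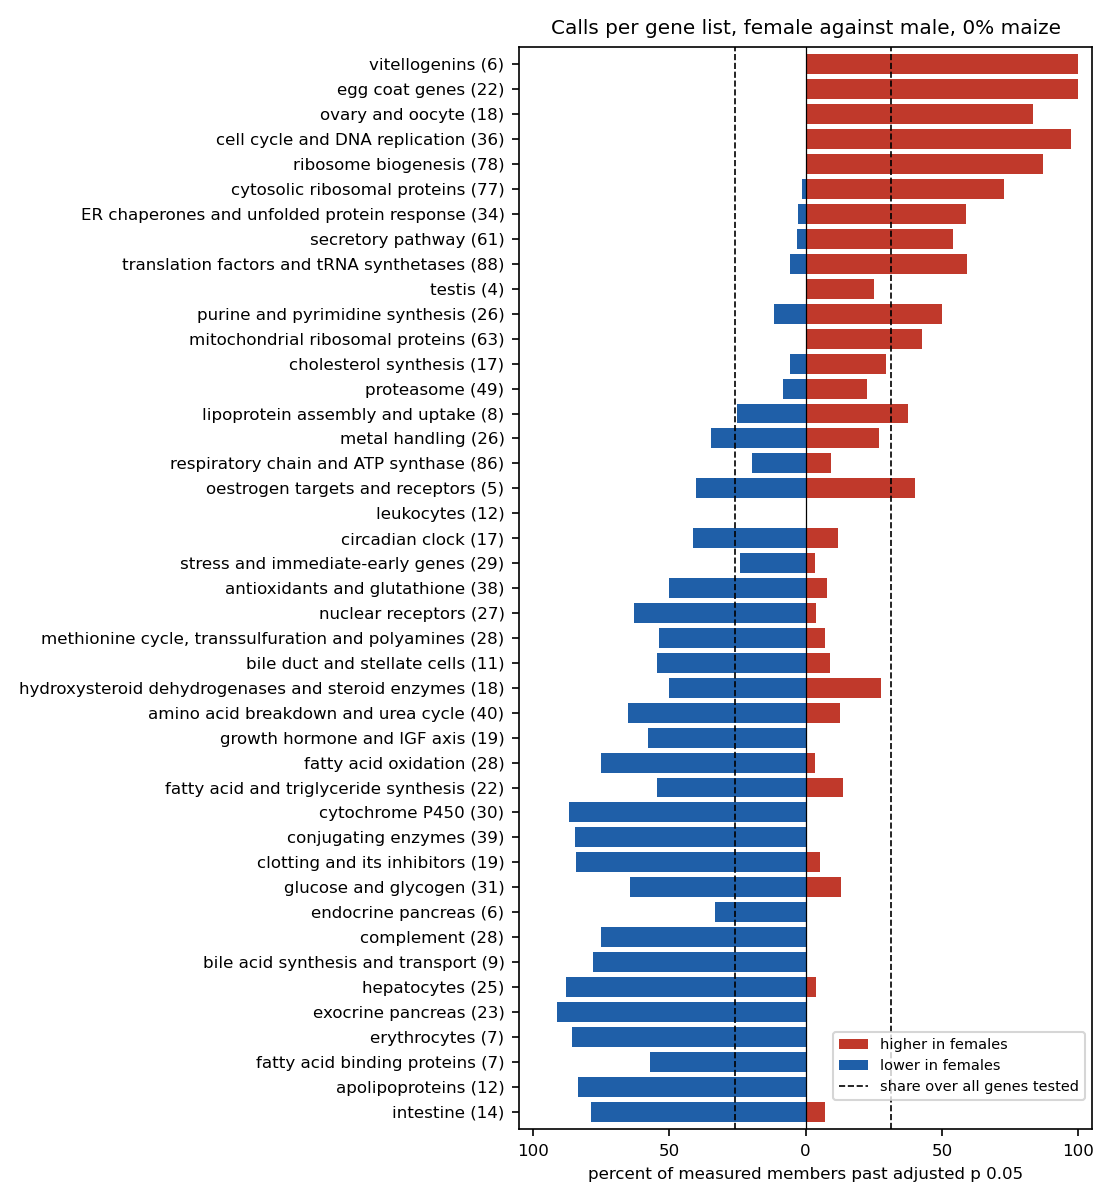
Percent of the measured members of each of 43 gene lists that were higher (red, to the right) or lower (blue, to the left) in females at an adjusted p under 0.05, with the number measured in brackets, ordered by the median difference. Dashed lines mark the shares over all genes, 31.3% higher and 25.9% lower, and the apolipoproteins, intestine and exocrine pancreas lists lie at the lower end.

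Hormone signalling genes were lower in females more often than higher. Of 19 genes of the growth hormone and insulin-like growth factor (IGF) axis, 11 were lower and none higher. In all 57.9% of this list passed, close to the 57.2% over all genes, where 25.9% were lower and 31.3% higher. The IGF binding proteins igfbp2a and igfbp5b differed by -1.72 and -1.47 on 3 probes each, and jak2a, a kinase of the growth hormone receptor, by -0.93. Levels of igfbp2a were -0.81, -0.69 and -0.87 in females and 0.92, 0.80 and 0.98 in males, with little spread in either sex. Of 27 nuclear receptors, 4 of which also stand in the list of clock genes, 17 were lower and 1 higher, so that 66.7% passed. nr5a1a, a receptor that drives steroid-making enzymes, differed by -1.61, its paralogue nr5a1b by -0.73, the repressor nr0b1 by -0.96 and the clock repressor nr1d2b by -0.96. Without the male 25% maize pool of replicate 3, 4 of 19 and 3 of 27 passed, against 999 of all 6684 genes.

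Markers of some other cell types in or next to the liver also differed. Of the exocrine pancreas genes 91.3% passed, and of the intestine and erythrocyte genes 85.7% each, against 57.2% over all genes. The bile duct and stellate cell list, at 63.6%, was near that share. The endocrine pancreas list, at 33.3%, and the leukocyte list, at 0%, were below it. Of 23 exocrine pancreas genes, 21 were lower in females and none higher, with a mean level of -0.93, -0.65 and -0.87 in females and 0.91, 0.08 and 1.04 in males. The male pool of replicate 3 was thus well below the other males. The digestive enzymes cpa4, cel.1, cpa5 and ctrl differed by -2.48, -1.91, -1.88 and -1.75. Without the female 0% maize pool of replicate 1, 4 of the 23 passed, against 1815 of all 6684 genes. Of 6 endocrine pancreas genes, 2 somatostatin genes were lower, sst2 by 1.93 and sst1.1 by 1.23, whereas the pools of sst1.1 overlapped and no single probe of it passed. The glucagon genes gcga and gcgb had differences of -1.19 and -0.95 (adjusted p = 0.14 each). The mean level of this list was -0.87, -0.19 and -1.16 in females and 0.62, 0.45 and -0.60 in males, so that the male pool of replicate 4 lay below the other males and within the range of the females. Neither somatostatin gene passed without the female 0% maize pool of replicate 1, whereas 5 of the 6 genes were lower without the male 0% maize pool of replicate 4. With the tank as a block 5 of the 6 were lower, with gcga at -1.77 (adjusted p = 0.0139) and gcgb at -1.39 (adjusted p = 0.0156). The tank term sets aside the female pool of replicate 2 and the male pool of replicate 4, whose tanks had no measured pool of the other sex. That fit thus also omits the male pool of replicate 4 and is no separate evidence.

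Of 14 intestine genes, of which 4 also stand among the apolipoproteins or fatty acid binding proteins, 11 were lower and 1 higher. Fatty acid binding protein fabp2 had levels of -1.98, -2.23 and -1.12 in females and 1.08, 2.38 and 0.95 in males. mep1a.1, a brush border protease, had -1.75, -1.89 and -1.23 in females and 1.88, 1.81 and 1.47 in males, and the retinol carrier rbp2b had -2.08, -2.38 and -1.90 in females and 1.1, 1.1 and 1.98 in males. The fatty acid transporter cd36 and the mucin muc13b, also among the 12 largest negative differences, differed by -3.54 and -3.27. The exception among the intestine genes, rbp2a, was higher by 1.25 in the mean of its 3 probes, but lower by 0.33 (adjusted p = 0.024) in their median. The mean level of the list was at most -0.77 in females and at least 0.62 in males. Without the female 0% maize pool of replicate 1, 7 of the 14 passed, against 1815 of all 6684 genes. The parts of pancreas and intestine tissue in the differences were not tested.

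Of 7 erythrocyte genes, 6 were lower in females, with the globins hbaa1, hbba2 and hbaa2 at -2.17, -2.08 and -2.08. The male pool of replicate 1 was the lowest male pool at a list mean of -0.02, against 1.08 and 0.74 in the others, and the females lay between -1.08 and -0.82. With arrays scaled to 1 spread, 1 of the 7 passed. Without the female 0% maize pool of replicate 1, 1 passed, against 1815 of all 6684 genes. None of 12 leukocyte genes passed by limma, with 0 at an unadjusted p under 0.05. The female pool of replicate 2 had the highest leukocyte level of the 6 pools, 0.66 against -0.47 and -0.60 in the other females and -0.02 to 0.28 in males, and without it 7 of the 12 were lower in females. With the tank as a block, which likewise sets aside the female pool of replicate 2, 5 of the 12 were lower. cd74b, of antigen-presenting cells, had levels of -0.72, 0.79 and -0.63 in females and 0.18, 0.42 and -0.01 in males. Of 11 bile duct and stellate cell genes, 6 were lower and 1 higher, with the smooth muscle actin gene acta2 at -2.34, the keratin gene krt4 at -1.88 and epcam at 1.54. Without the male 25% maize pool of replicate 3, 1 of the 11 passed, against 999 of all 6684 genes. All 11 passed without the female 0% maize pool of replicate 2, 10 of them lower, against 4183 of all 6684.

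Among the 8 genes over 10-fold lower in females, the largest difference was also the least even. ctsl.1, a cathepsin L gene, had levels of -2.04, -2.33 and -1.53 in females and 2.94, -0.52 and 4.16 in males, a difference of -4.22 (SE 1.5, adjusted p = 0.032). With the tank as a block it was -2.89 (adjusted p = 0.072). The male pool of replicate 3 was far below the other males, near the females. slc25a48, a mitochondrial carrier, had -1.99, -1.69 and -2.62 in females and 1.30, 1.61 and 1.82 in males, a difference of -3.63 (SE 0.31). The uncharacterised gene LOC100216314 had -2.60, -2.59 and -2.58 in females and 1.24, 0.89 and 0.79 in males, a difference of -3.67 (SE 0.31). The female pools of this gene nearly coincided.

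The difference between the sexes was next set beside that on 25% maize, which rests on the other 6 pools but on the same 12 arrays. On 25% maize 2734 genes (40.9%) passed. The difference between the sexes on 0% maize minus that on 25% maize passed the threshold for 0 genes by limma, with 627 genes (9.38%) at an unadjusted p under 0.05. Median differences on 0% and 25% maize were 5.54 and 5.04 for vitellogenins, 3.87 and 3.01 for egg coat genes, 0.51 and 0.52 for the secretory pathway and 0.77 and 0.73 for ribosome biogenesis. They were -1.37 and -1.29 for hepatocyte markers, -0.94 and -0.55 for cytochrome P450 genes, -2.35 and -0.91 for apolipoproteins and -2.43 and -0.65 for intestine genes. The count of 0 was not stable, since 50 genes passed without the female 25% maize pool of replicate 3. It was 1480 with arrays scaled to 1 spread. Such scaling gives the 2 arrays of 1 sex each the spread of the arrays of both sexes. The difference between diets crosses these 2 arrays, so the 1480 cannot tell whether the count of 0 is stable. A missing call thus does not show that the sexes differed alike on both diets.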

How the data were processed

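Two-colour arrays of pooled liver RNA were scanned and read with GenePix Pro by the authors, whose processing notes name limma. The deposited values are log ratios of the dyes, taken as log2, for 12275 probes without gaps. The methods leave the steps of array processing to a supplement that was not used here, so the background correction, normalization and probe filter are unknown here. The methods name 4 biological replicates, and the labels show 3 pools per sex and diet.

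Arrays were mapped to pools and dyes from the labels. The model (limma 3.58.1, R 4.3.3) had 1 term per group and a dye term, fitted after whitening for pools that 2 arrays share. The pool variance was 2.91 times the array error over probes and 3.59 over genes (restricted maximum likelihood), with 8 residual degrees of freedom. The threshold was a Benjamini-Hochberg adjusted p of 0.05. P-values rest on the residual spread of all arrays around the groups of both diets, not on the compared pools alone. The ratio of pool variance to array error was the same for every gene, so array error was not estimated gene by gene. The error of the 2 arrays of 1 sex each is thus largely assumed in the p-values and not measured. Pool levels were solved from the closed loop, so fitted differences need not equal differences of their means. The steps were tested only on data simulated from the fitted model itself, with few changed probes. In these data 55.3% of probes passed. The simulation thus cannot show how the fit handles such wide change or an error in the 2 arrays of 1 sex each. The number of arrays limits the precision.

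A gene is the mean of its probes. Of the probes, 10307 had 1 gene symbol, 1968 none and 0 several. Symbols were updated through accessions of RefSeq's GRCz12tu table for 9007 probes, matched as a current symbol for 976 and through a synonym for 317, and 7 stayed as given. Coordinates are left out because the build behind the array is not named. Females and males of 1 diet and replicate number shared a tank per the methods, and the deviations of the 4 such pairs of pools correlated at -0.128, 0.029, -0.012 and -0.3.

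Named genes are the 12 largest positive and negative differences among genes past the threshold with no overlap of the sexes, up to 4 members of each of 43 lists with the smallest p, and all vitellogenins and oestrogen receptors. zp2.2 was named after its value was seen. The comparison, the genes and the lists were chosen with earlier results of these data known. Alternatives concerned pool, tank, replicate and dye terms, array centring, scaling and weights, the value per gene, stricter thresholds, and leaving out single pools or arrays. The counts per list without a pool or array were chosen after seeing the data. Figures were drawn with matplotlib 3.10.9.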

Additional observations from a re-analysis of the deposited data

How the results depend on the processing

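The number of genes past the threshold lay between 3414 and 3987 with arrays taken as independent, other tank and dye terms, centring, scaling, array weights, pool levels, robust moderation or the median of probes, against 3826 as reported. With the replicate block of the tank as a fixed term, 5972 probes and 3545 genes passed. On 0% maize only the tanks of replicates 1 and 3 had measured pools of both sexes. This block thus sets aside the female 0% maize pool of replicate 2 and the male 0% maize pool of replicate 4. With a block for the number, 5829 probes and 3549 genes passed, with 11 genes in place of 0 for the difference between diets. Of the 43 list counts, each block moved 2 by over 1.5 times. With the tank these were the endocrine pancreas (5 of 6) and leukocyte (5 of 12) lists, and with the number the endocrine pancreas (0 of 6) and mitochondrial ribosomal protein (17 of 63) lists. Among named genes the tank block changed 6 calls, those of srebf2, ctsl.1, gcga, gcgb, cd74b and cxcr4b, and the number block 4, those of ctsl.1, fabp1b.1, sst1.1 and sst2. With a further condition of a log2 difference over 1, 2827 probes and 1336 genes passed. Without the array of 2 female pools 3133 probes and 1844 genes passed, and without the array of 2 male pools 2815 and 1524, both with 1 link fewer. With 1 pool left out, the count ranged between 2040 probes (999 genes) without the male 25% maize pool of replicate 3 and 7457 probes (4183 genes) without the female 0% maize pool of replicate 2. For the difference between diets it ranged between 0 and 50 genes, and it was 1480 with arrays scaled to 1 spread, 23 with the levels of the 12 pools and 6 without the array of 2 female pools. Scaling gives the 2 arrays of 1 sex each the spread of the arrays of both sexes. The sex difference on 0% maize and its difference between diets both cross these 2 arrays. Values under scaling therefore depend on that setting. The cause of the changed counts was not tested. Under scaling, spata4 was higher by 1.13 (adjusted p = 0.0403), where its difference was -0.12, and with the median of probes rbp2a was at -0.33. Of 4784 values of named genes under alternatives, 4551 kept their side of the threshold, 212 no longer passed, 19 newly passed and 2 turned. A change of sign counted as a turn only where at least 1 of the 2 fits passed. The 4551 can thus include changes of sign where neither passed. The number of arrays, and the 2 arrays of 1 sex each that join the loop, limit what can be told.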

Other observations

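Further lists held smaller or mixed differences. Of 38 antioxidant genes, 19 were lower in females and 3, prdx4 among them, were higher. In all 57.9% passed, close to the 57.2% over all genes. gpx4a, a glutathione peroxidase that protects membrane lipids, had levels of -1.04, -1.19 and -0.76 in females and 1.21, 0.69 and 1.35 in males, a difference of -2.08 on all 3 probes (SE 0.19, adjusted p = 1.8e-05 by limma). The quinone reductase nqo1 differed by -1.80 and catalase (cat) by -1.36. Of 26 genes of metal handling, 3 of which (cp, hpxa and tfa) are also hepatocyte markers, 7 were higher and 9 lower. Neither is far from the shares of 31.3 and 25.9% over all genes. The iron and metal importer slc11a2 was higher by 0.84. Of 86 respiratory chain and ATP synthase genes, 8 were higher and 17 lower, both below the shares of 31.3 and 25.9% over all genes. The largest of those named were atp5pf at -1.23 and cox6a2 at -0.72. Of 49 proteasome genes, 11 were higher and 4 lower, both also below the shares over all genes, with the activator psme3 at 1.19 and the immunoproteasome subunit psmb9a at -1.08. In the female pool of replicate 2, psmb9a was at -0.03, against -0.91 and -0.82 in the other females and 0.27 to 0.62 in males.

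Of 17 clock genes, of which 4 are also in the nuclear receptor list, 2 were higher and 7 lower in females. Together 52.9% passed, close to the 57.2% over all genes. The higher genes were below the share of 31.3% over all genes, and the lower genes above that of 25.9%. bmal1a, an activator of the clock, had levels of 0.53, -0.21 and 0.59 in females and -0.57, -0.78 and -0.46 in males, a difference of 0.93 (SE 0.21, adjusted p = 0.0032), whereas the repressor gene nfil3-6 differed by -0.68 on 2 of 4 probes. The hour at which fish of each pool were sampled is not given in the sources used here. Of 29 stress and immediate-early genes, 7 were lower, close to the 25.9% over all genes, and 1 was higher. ndrg1a, a stress-responsive gene, had levels of -1.37, -1.33 and -1.11 in females and -0.52, 0.37 and 0.63 in males, and cebpd, a transcription factor of the acute phase, differed by -1.16 on all 3 probes. With 1 pool left out, the lowest counts were 11 of 38 antioxidant, 2 of 86 respiratory chain and 1 of 29 stress genes. These came without the female 25% maize pool of replicate 4, where 1364 of all 6684 genes passed. For metal handling, proteasome and clock genes they were 6 of 26, 1 of 49 and 1 of 17. Those came without the male 25% maize pool of replicate 3, where 999 of all 6684 genes passed.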
